A study of Mus musculus with 16 samples.

Results

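Tumours of mice given QH-II-066 alone were compared with untreated tumours, 4 libraries against 4 of the 16 in the series, across all genes. The tumours grew from B16F10-GP cells, a mouse melanoma line, implanted in 25% Matrigel on the flanks of female C57BL/6 mice aged 6 to 8 weeks. In the QH-II-066 group, 10 mg/kg was injected intraperitoneally each day for 7 days from day 10. The control libraries carry the label untreated; the protocol's own control mice received vehicle alone, and the 2 were treated as one group here. The other 8 libraries came from tumours given 5 Gy of X-rays to the right flank, 4 with QH-II-066 that evening and 4 without it. There too the drug was given at 10 mg/kg for 7 days from day 10. These 8 libraries entered the same model and its estimate of the spread, and so bear on the p-values, errors and intervals given here. Their own values are given only beside the drug comparison. The labels do not say which flank was profiled in unirradiated mice, nor that every library came from its own mouse, so p-values measure the spread between these libraries, which may be technical.

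QH-II-066 enhances GABA-A receptors, chloride channels that open when they bind the transmitter GABA, and it prefers receptors that hold the subunit encoded by Gabra5. A GABA-A receptor is a ring of subunits drawn from several families, and the binding site for drugs of this kind lies between an alpha and a gamma subunit. In neurons the opened channel mostly lets chloride in. In a cell that keeps its chloride high, chloride leaves and the membrane depolarises, which can admit calcium. RNA from a whole tumour holds transcripts of the melanoma cells and of the vessels, stroma, immune cells and neighbouring tissue taken with it, and fewer cells of a type cannot be told apart from less RNA per cell.

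Between 23035634 and 38114306 fragments were counted in the QH-II-066 libraries, and between 25017744 and 31680098 in the untreated ones. Of 46078 genes in the table, 26513 had a fragment in at least 1 of the 8 libraries and 16101 were tested. The libraries carried the marker transcripts of their label: Pmel, a structural protein of the pigment granule, had 6166, 5618, 4759 and 4984 CPM in QH-II-066 tumours, against 4632, 5062, 4985 and 6119 CPM in untreated ones. CPM are fragment counts scaled to library size, after a correction for library composition (TMM). The mitochondrially encoded genes had 0 counts in every library, so none of the 13 on the list was tested.

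No gene passed the main test in this comparison. With edgeR's quasi-likelihood test and Benjamini-Hochberg adjustment over the 16101 genes, 0 were called higher and 0 lower in QH-II-066 tumours at a threshold of 0.05, and the smallest adjusted p was 0.546. At an unadjusted p under 0.05 there were 506 higher genes (3.14% of those tested) and 810 lower genes (5.03%). In 221 genes (1.37%) every QH-II-066 library lay above every untreated one, and in 249 (1.55%) every QH-II-066 library lay below. The log2 fold change, QH-II-066 over untreated, was above 0 for 8312 genes (51.6%) and below 0 for 7708, and its median was 0.0143.

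The precision of these libraries sets what could have been seen. The 95% interval of a log2 fold change reached a median of 0.51 to either side of the estimate over all tested genes. For the 6100 genes with a mean log2 CPM of 5 or more that median was 0.34, and for genes under a log2 CPM of 1 it was 1.25. For 9940 genes (61.7%) the whole interval lay within 1 log2 unit of 0, that is, within a 2-fold difference in either direction. Genes with a log2 fold change of exactly 0 count among the 9940. Their interval came out with no width, which measures no precision. For genes outside the 9940 the interval reached a 2-fold difference or passed it in at least 1 direction.

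The likeness of libraries between the groups spanned the same range as within them. Pearson correlations of log2 CPM across genes ran from 0.956 to 0.985 between QH-II-066 and untreated libraries, from 0.947 to 0.981 among QH-II-066 libraries, and from 0.960 to 0.985 among untreated libraries. QH-II-066 replicates 1, 2 and 4 each correlated best with untreated replicate 4, and untreated replicate 4 correlated best with QH-II-066 replicate 1, at 0.985. Without untreated replicate 4, edgeR still called 0 genes, while the genes at an unadjusted p under 0.05 numbered 1758 higher and 2337 lower. Without untreated replicates 1, 2 and 3 in turn they numbered 403 higher and 532 lower, 320 higher and 373 lower, and 251 higher and 119 lower. Without QH-II-066 replicates 1, 2, 3 and 4 in turn they numbered 648 higher and 342 lower, 435 and 378, 871 and 1869, and 324 and 221. The 8 libraries fitted alone gave 563 higher and 424 lower of 14762 genes, and the fit with no filter on low counts 829 higher and 728 lower of 28869, so the balance of higher and lower genes followed the setting. In each of these fits edgeR called 0 genes.

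Other tools gave other counts. DESeq2 called 13 genes higher and 3 lower at an adjusted p under 0.05. Of these 16, Krt79, Acer1, Krtdap, Calml3 and Klk7 above 0 and Klk10, Chit1 and Casp14 below 0 had at most 0.162 CPM in any of the 8 libraries, and all but Krt79 had fragments in 1 library only. The other 8 were Cdo1, Pcsk5, Rbp4, Fabp4, Amy1, Gnai1, Tmem45b and Tagln. The 16 are named because of these calls, after their values were seen. limma-voom with sample weights called 1875 genes higher and 2747 lower. Its weights ran from 0.314 for untreated replicate 4, the lowest of the 16 libraries, to 2.94 for QH-II-066 replicate 4, the highest. With no sample weights, limma-voom called 0 higher and 0 lower, with 449 and 757 at an unadjusted p under 0.05.

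The genes nearest to a call in edgeR are given next as values, not as calls: the 12 with the smallest unadjusted p above 0 and the 12 below 0, among genes whose mean log2 CPM was 1 or more. Each of the 24 had an adjusted p of 0.546 in edgeR's quasi-likelihood test. DESeq2 called 5 of them, Tagln, Fabp4, Amy1, Cdo1 and Rbp4, and limma-voom with sample weights 21. Over all 16101 tested genes DESeq2 called 13 higher and 3 lower, and weighted limma-voom 1875 higher and 2747 lower. The 24 were picked by p in these same libraries, so calls by other tools are no separate support. Log2 fold changes ran from 0.69 to 4.70 in the 12 above 0 and from -0.80 to -0.32 in the 12 below 0. In 5 of the 12 above 0 and 10 of the 12 below 0 the groups did not overlap, set against 1.37% and 1.55% of all tested genes. Picking by the smallest p favours such genes, so these counts are no further evidence.

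Tagln encodes transgelin, an actin-binding protein of smooth muscle and contractile stroma (chromosome 9, 45929628 to 45936058, mm10), and had the smallest p of the 24. It had 19.5, 25.0, 19 and 40.0 CPM in QH-II-066 tumours, against 11.3, 14.4, 12.9 and 10.7 CPM in untreated tumours. Every QH-II-066 library lay above every untreated one, and the log2 fold change was 1.07 ± 0.25 (SE). Its exons overlap those of Pcsk7, and the counting used no strand, which holds for every overlap named here. Igf1, which encodes the growth factor IGF-1, had 7.28, 12.7, 21.4 and 19.9 CPM in QH-II-066 tumours, against 6.35, 5.73, 2.85 and 6.68 CPM in untreated tumours, again with no overlap, and a log2 fold change of 1.50 ± 0.41 (SE).

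Rsrp1, which encodes an arginine- and serine-rich protein, lies on chromosome 4, 134923592 to 134927671. It had 191, 205, 135 and 189 CPM in QH-II-066 tumours, against 111, 129, 108 and 98.8 CPM in untreated tumours. The groups did not overlap, and the log2 fold change was 0.69 ± 0.19 (SE). The noncoding gene 6720427I07Rik, whose exon overlaps Mirlet7d, had 3.86, 4.91, 2.75 and 3.21 CPM in QH-II-066 tumours, against 2.14, 1.85, 1.44 and 1.55 CPM in untreated tumours. The uncharacterised C130074G19Rik had 7.25, 7.95, 16.8 and 11.6 CPM in QH-II-066 tumours, against 4.78, 3.92, 2.30 and 6.01 CPM in untreated tumours. In both genes every QH-II-066 library was the higher, with log2 fold changes of 1.08 ± 0.28 (SE) and 1.36 ± 0.37 (SE).

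The remaining 7 of the 12 above 0 had groups that overlapped, and 1 library, QH-II-066 replicate 3, was the highest of the 8 in each of them. That library was also the highest of the 8 for Igf1 and C130074G19Rik, whose groups did not overlap. Fabp4, the fatty acid carrier of adipocytes (chromosome 3, 10204088 to 10208576), had 62.8, 91.6, 451 and 256 CPM in QH-II-066 tumours, against 76.9, 34.2, 14.4 and 49.3 CPM in untreated tumours. Rbp4, which carries retinol in blood and is also made by fat, had 0.0989, 1.77, 14.6 and 3.05 CPM in QH-II-066 tumours, against 0.368, 0.269, 0.0640 and 0.0352 CPM in untreated tumours. QH-II-066 replicate 1 lay within the untreated range for Rbp4 and for Fabp4, while replicate 3 stood far above it. The same order held for Cdo1, which starts the breakdown of cysteine, with 0.362, 3.67, 56.7 and 7.96 CPM in QH-II-066 tumours, against 1.77, 0.423, 0.192 and 0.879 CPM in untreated tumours. Amy1 (an amylase with near-identical copies, whose exons overlap Rnpc3), Sncg (gamma-synuclein), Scn7a (a sodium channel) and Itga7 (the laminin receptor of muscle, whose exons overlap Mettl7b) had log2 fold changes of 4.62, 2.87, 2.69 and 1.22.

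The 12 genes below 0 differed by less, with libraries closer together. Kif26a, an unconventional kinesin (chromosome 12, 112146208 to 112181747), had 6.69, 7.85, 9.10 and 8.68 CPM in QH-II-066 tumours, against 17.4, 15.6, 13.7 and 9.50 CPM in untreated tumours. Its highest QH-II-066 library stood just under its lowest untreated one, and its log2 fold change was -0.80 ± 0.20 (SE). Scaf1, a splicing-related factor that binds the tail of RNA polymerase II, had 57.8, 61.2, 64.4 and 56.3 CPM in QH-II-066 tumours, against 79.4, 85.9, 93.8 and 79.4 CPM in untreated tumours. For Scaf1 a clear gap separated the groups, at a log2 fold change of -0.50 ± 0.13 (SE).

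The other 10 genes below 0 have varied roles. Mnt, the MAX partner that opposes MYC, had 30.3, 33.1, 37.6 and 34.2 CPM in QH-II-066 tumours, against 43.0, 46.4, 48.1 and 46.2 CPM in untreated tumours, with no overlap. Banp, a DNA-binding nuclear matrix protein gene whose exons overlap Gm27011, had 24.2, 22.4, 20.1 and 15.2 CPM in QH-II-066 tumours, against 29.3, 33.0, 35.9 and 25.3 CPM in untreated tumours, also with no overlap. Kdm6b, the histone H3 lysine demethylase JMJD3, had 17.6, 18.6, 23.6 and 17.5 CPM in QH-II-066 tumours, against 28.5, 29.9, 39.8 and 20.5 CPM in untreated tumours, and here untreated replicate 4 lay among the QH-II-066 libraries; its exons overlap Kdm6bos. Foxp4 (a forkhead repressor), Sf1 (the branch-point binding splicing factor, overlapping Gm14966) and Rbm20 (a splicing regulator of titin) had log2 fold changes of -0.40, -0.37 and -0.53. Usp19 (a deubiquitinase), Kif7 (a kinesin of Hedgehog signalling in cilia, overlapping 9330171B17Rik and Ticrr), Armc9 (a ciliary base protein, overlapping Gm21972) and Slc10a7 (a membrane transport protein) had -0.40, -0.60, -0.47 and -0.32. Of these 7, only Rbm20 had overlapping groups.

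**Figure D1:**
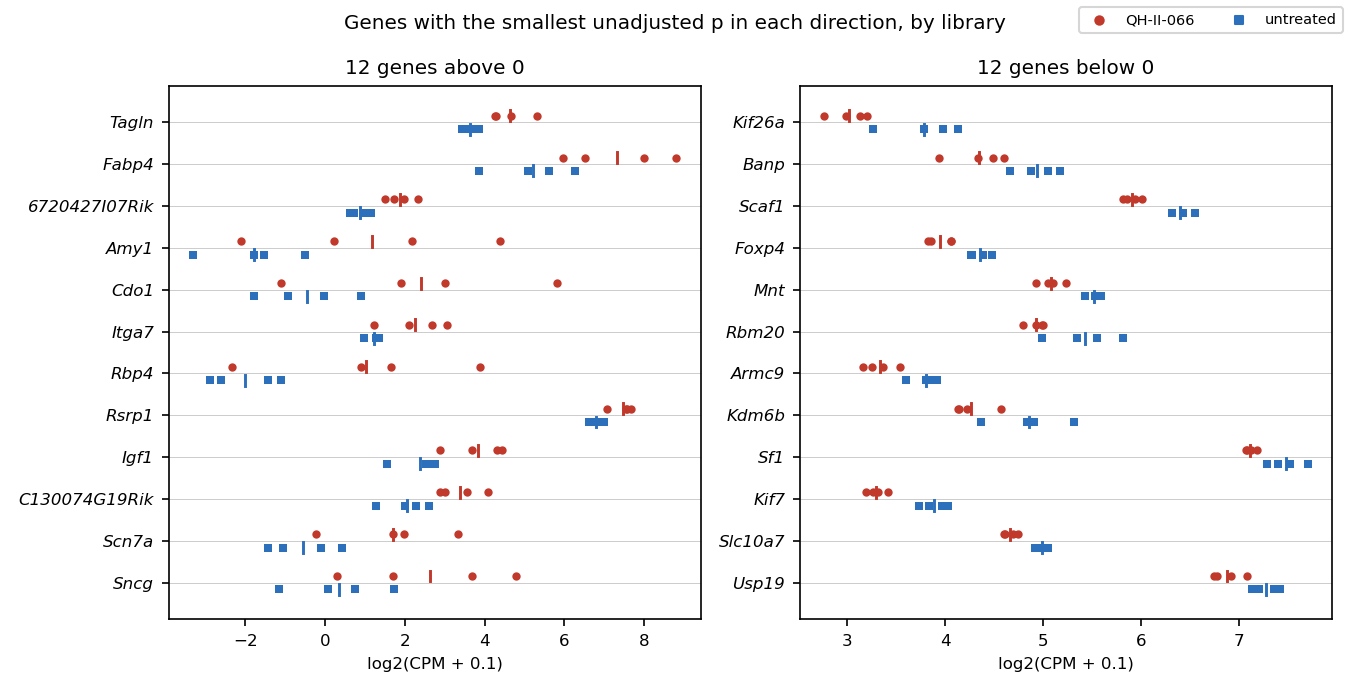
Level of the 12 genes with the smallest unadjusted p above 0 (left) and below 0 (right) in each library, as log2 of CPM plus 0.1; red circles are QH-II-066 tumours, blue squares untreated tumours, and vertical bars the group means of these log values (n = 4 each). The groups overlap in 7 of 12 genes on the left and in 2 of 12 on the right, and edgeR called none of the 24, while DESeq2 called 5. All 24 were picked by p in these same libraries. Over all tested genes the groups did not overlap in 1.37% (higher) and 1.55% (lower).

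Markers of fat tissue stood furthest from 0 of all 47 lists with tested members. All 10 adipocyte genes had a log2 fold change above 0, with a median of 3.36, and all 10 had an unadjusted p under 0.05, set against 3.14% of all tested genes. edgeR called 0 of them, DESeq2 called Fabp4 (2.31 on the log2 scale, adjusted p = 0.0173), and limma-voom with sample weights called 2. Over all 16101 tested genes, edgeR, DESeq2 and weighted limma-voom called 0, 13 and 1875 higher. Retn, which encodes the adipocyte hormone resistin, had 0.395, 5.21, 74.2 and 15.5 CPM in QH-II-066 tumours, against 2.34, 0.0385, 0.224 and 0.176 CPM in untreated tumours. Lipe, the hormone-sensitive lipase, had 5.40, 6.95, 51.8 and 19 CPM in QH-II-066 tumours, against 7.05, 6.12, 5.34 and 8.55 CPM in untreated tumours; its exons overlap 4732471J01Rik. The list score, the mean log2 CPM of the tested members, was 0.94, 3.11, 6.33 and 4.78 in QH-II-066 libraries 1 to 4 and 2.92, -0.54, 0.73 and 1.43 in untreated libraries 1 to 4. The groups overlap, since QH-II-066 replicate 1 lay below untreated replicates 1 and 4. Without QH-II-066 replicate 3 the median was 2.06, without untreated replicate 1 it was 5.05, and with the score as a covariate, a setting added after the data were seen and made from these same genes, it was -0.12.

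Genes of drug and toxin metabolism included transcripts that were high in the same libraries. Of 20 tested members, 12 were above 0, with a median of 0.19, and 5 had an unadjusted p under 0.05, all of them higher in QH-II-066 tumours, set against 3.14% of all tested genes. Cyp2e1, a cytochrome P450 that oxidises ethanol and small solvents, had 0.0659, 1.24, 28.1 and 4.19 CPM in QH-II-066 tumours, against 0.768, 0, 0.0959 and 0.246 CPM in untreated tumours. Gstt1, a glutathione transferase, had 0.692, 1.97, 3.64 and 2.84 CPM in QH-II-066 tumours, against 0.568, 0.462, 0.831 and 0.809 CPM in untreated tumours, and Sult1a1, a phenol sulfotransferase whose exons overlap Sgf29, had 0.692, 1.5, 11.1 and 3.24 CPM in QH-II-066 tumours, against 1.47, 0.385, 0.288 and 0.774 CPM in untreated tumours. For all 3 genes the highest value was in QH-II-066 replicate 3, the library with the highest adipocyte score. With that score as a covariate the list's median was 0.01.

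Mast cell protease genes had few fragments and were mostly higher in QH-II-066 tumours, without passing edgeR's test. Of 6 tested members 5 were above 0, with a median of 2.25, and 3 had an unadjusted p under 0.05, all above 0, set against 3.14% of all tested genes. Tpsb2, a tryptase, had 1.45, 1.87, 4.08 and 2.10 CPM in QH-II-066 tumours, against 0.234, 0.385, 0.0320 and 1.20 CPM in untreated tumours, and its groups did not overlap. Cpa3, mast cell carboxypeptidase A, had 0.989, 1.14, 3.92 and 1.59 CPM in QH-II-066 tumours, against 0.167, 0.0385, 0.0640 and 1.13 CPM in untreated tumours. Cma1, a chymase, had 1.15, 1.90, 4.69 and 2.31 CPM in QH-II-066 tumours, against 0.368, 0.0769, 0.128 and 1.58 CPM in untreated tumours. For both, untreated replicate 4 lay among the QH-II-066 libraries and the other 3 untreated libraries lay below them. The list's score was 1.01, 1.19, 2.50 and 1.52 in QH-II-066 libraries and -0.50, -1.30, -1.19 and 0.99 in untreated ones. With the adipocyte score as a covariate the median was 0.92, and without untreated replicate 4 it was 3.56.

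Stromal and matrix genes were mostly above 0. Of 15 fibroblast and matrix genes 13 were above 0, with a median of 0.69, and 5 had an unadjusted p under 0.05, all above 0, set against 3.14% of all tested genes. Postn, the matrix protein periostin, had 59.9, 97.6, 61.1 and 143 CPM in QH-II-066 tumours, against 50.8, 36.1, 35.0 and 57.0 CPM in untreated tumours, with no overlap. Dcn, the collagen-binding proteoglycan decorin, had 22.1, 68.5, 63.0 and 50.6 CPM in QH-II-066 tumours, against 17.8, 16.6, 10.2 and 37.0 CPM in untreated tumours, where QH-II-066 replicate 1 lay in the untreated range. Col3a1 (type III collagen, overlapping Gm47302) and Col1a1 (type I collagen) had log2 fold changes of 0.97 ± 0.41 (SE) and 0.52 ± 0.36 (SE). The list's score was 5.03, 6.11, 5.63 and 6.00 in QH-II-066 libraries and 5.11, 4.86, 4.72 and 5.48 in untreated ones, and with the adipocyte score as a covariate its median was 0.32.

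Contractile genes of vessel walls followed the same pattern in part. Of 12 pericyte and smooth muscle genes 9 were above 0, with a median of 0.44, and 4 had an unadjusted p under 0.05, all above 0, set against 3.14% of all tested genes. That median was 0.08 with the adipocyte score as a covariate and 0.26 without QH-II-066 replicate 3. Beside Tagln these included Acta2, smooth muscle actin, with 21.7, 36.5, 34.5 and 47.1 CPM in QH-II-066 tumours, against 12.2, 30.0, 22.8 and 18 CPM in untreated tumours. Cnn1, calponin, had 0.165, 0.20, 2.06 and 2.31 CPM in QH-II-066 tumours, against 0.134, 0.231, 0.192 and 0.106 CPM in untreated tumours, so that QH-II-066 replicates 3 and 4 alone stood apart. Among 13 endothelial genes 11 were above 0, with a median of 0.29, which was 0.07 without QH-II-066 replicate 3 and 0.0053 with the adipocyte score as a covariate. Tek, the angiopoietin receptor TIE2, and Esam, a junction protein, had log2 fold changes of 1.04 ± 0.42 (SE) and 0.41 ± 0.20 (SE), while Eng, the TGF-beta co-receptor endoglin, had -0.29 ± 0.15 (SE).

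The values of skeletal muscle genes rested on a single library. All 17 tested members were above 0, with a median of 2.62, and 0 had an unadjusted p under 0.05. The list's score was -1.29, -1.09, 0.89 and 6.14 in QH-II-066 libraries and -1.63, 0.26, 2.84 and 2.02 in untreated ones, with QH-II-066 replicate 4 far above the rest. Acta1, skeletal muscle actin, had 0.165, 0.301, 5.78 and 338 CPM in QH-II-066 tumours, against 0.0334, 4.58, 34.4 and 17 CPM in untreated tumours. Casq1, the calcium store protein calsequestrin, had 1.19, 1.0, 1.05 and 33.2 CPM in QH-II-066 tumours, against 0.835, 0.923, 2.21 and 2.11 CPM in untreated tumours. Tnni2, fast troponin I, had 0.494, 0.468, 2.10 and 100.1 CPM in QH-II-066 tumours, against 0.334, 0.654, 4.22 and 5.87 CPM in untreated tumours, and Tpm2, a tropomyosin, had 7.61, 10.4, 12.9 and 128 CPM in QH-II-066 tumours, against 3.51, 9.12, 11 and 11.4 CPM in untreated tumours. Without QH-II-066 replicate 4 the list's median was -1.72, and with the adipocyte score as a covariate it was -2.17. Nerve and Schwann cell genes were above 0 in 6 of 10, with a median of 0.22, which ran from 0.16 without untreated replicate 3 to 0.39 without untreated replicate 4. Mbp and Pmp22, both myelin proteins, had log2 fold changes of 0.58 ± 0.22 (SE) and 0.73 ± 0.30 (SE).

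**Figure D2:**
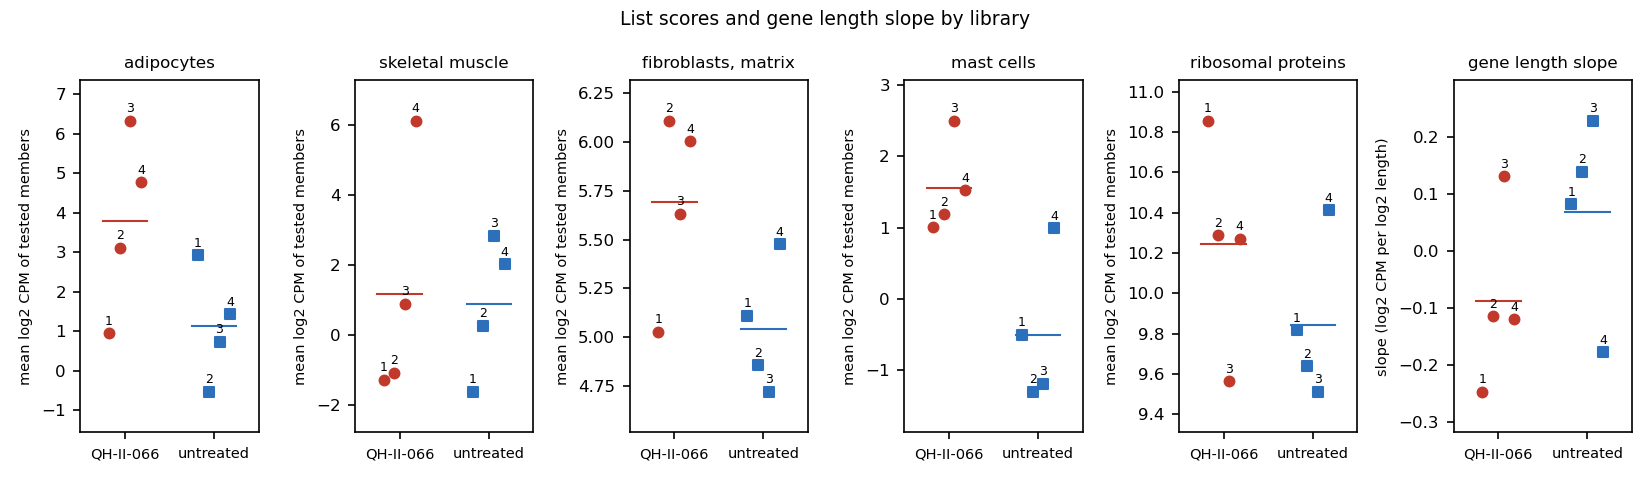
Score of 5 gene lists (mean log2 CPM of their tested members) and the gene length slope (how far log2 CPM departs from the mean of the libraries per doubling of gene length) in each library, red for QH-II-066 and blue for untreated tumours; numbers are replicate numbers and horizontal bars are group means (n = 4 each). The groups overlap in every panel but that of mast cells, where the lowest QH-II-066 score is 1.01 and the highest untreated one 0.99; the adipocyte score is highest in QH-II-066 replicate 3, at 6.33, and the skeletal muscle score in QH-II-066 replicate 4, at 6.14.

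Myeloid markers lay slightly above 0 as a list. Of 17 macrophage and monocyte genes 16 were above 0, with a median of 0.47, and 2 had an unadjusted p under 0.05, both above 0, set against 3.14% of all tested genes. The median was 0.24 with the adipocyte score as a covariate and ran from 0.28 without untreated replicate 3 to 0.72 without untreated replicate 4. Mrc1, the mannose receptor CD206, had 22.7, 51.6, 28.6 and 45.0 CPM in QH-II-066 tumours, against 21.1, 19.9, 24.2 and 25.8 CPM in untreated tumours. Cd163, the haemoglobin scavenger receptor, had 2.21, 4.78, 3.23 and 4.67 CPM in QH-II-066 tumours, against 2.21, 1.15, 1.31 and 2.11 CPM in untreated tumours. For Cd163 the lowest QH-II-066 library and the highest untreated one were nearly equal, and the log2 fold change was 1.13 ± 0.54 (SE). Cd14, the lipopolysaccharide co-receptor, had 0.66 ± 0.31 (SE). Of 12 dendritic cell genes 11 were above 0, with a median of 0.49, which was 0.08 with that covariate. Clec10a, a lectin, had 9.03, 34.7, 12.8 and 16.3 CPM in QH-II-066 tumours, against 3.41, 4.0, 2.59 and 12.9 CPM in untreated tumours; Irf8 and Cd209a had log2 fold changes of 0.49 ± 0.30 (SE) and 0.88 ± 0.62 (SE). The macrophage score was 4.37, 5.32, 4.97 and 5.26 in QH-II-066 libraries and 4.15, 4.54, 3.87 and 5.04 in untreated ones, which overlap.

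Markers of killer lymphocytes did not separate the groups. Of 14 CD8 and cytotoxic genes 10 were above 0, with a median of 0.14, and 0 had an unadjusted p under 0.05. The median ran from -0.01 without untreated replicate 3 to 0.44 without untreated replicate 4, and was -0.22 with the adipocyte score as a covariate. Cd8a, the co-receptor of CD8 T cells, had 6.23, 6.81, 9.18 and 9.77 CPM in QH-II-066 tumours, against 4.71, 7.88, 5.12 and 9.39 CPM in untreated tumours. Its log2 fold change was 0.24 ± 0.38 (SE), with a 95% interval from -0.56 to 1.04, so a 2-fold higher level lies just inside the interval. Gzmb (granzyme B) and Ifng (interferon gamma) had log2 fold changes of -0.26 ± 0.44 (SE) and 0.31 ± 0.53 (SE). Fasl, Gzma and Nkg7, all effector genes of these cells, had 0.89 ± 0.58 (SE), 0.58 ± 0.53 (SE) and 0.40 ± 0.45 (SE).

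Antigen presentation by MHC class I stood out in 1 untreated library. Of 15 genes 12 were above 0, with a median of 0.25 and 0 at an unadjusted p under 0.05. This median ran from 0.09 without untreated replicate 3 to 0.52 without untreated replicate 4, and was 0.06 with each library's gene length slope as a covariate. B2m, the light chain of MHC class I, had 3358, 3056, 3081 and 3174 CPM in QH-II-066 tumours, against 2597, 2569, 2329 and 3783 CPM in untreated tumours. Untreated replicate 4 was the highest of the 8 and the other 3 untreated libraries were the lowest. The same order held for Psmb9, an immunoproteasome subunit, with 399, 289.6, 242 and 294 CPM in QH-II-066 tumours, against 183, 149, 133 and 449 CPM in untreated tumours. H2-D1 and H2-Q4 had log2 fold changes of 0.27 ± 0.20 (SE) and 0.26 ± 0.20 (SE), with the limit that MHC class I genes have near-identical copies whose fragments the counting may lose. Cd274, which encodes PD-L1, and Cxcl10, a chemokine induced by interferon gamma, had 0.15 ± 0.27 (SE) and 0.08 ± 0.32 (SE).

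Pigment cell genes, the identity of the melanoma cells, lay slightly below 0. Of 17 genes 12 were below 0, with a median of -0.09 that ran from -0.18 without QH-II-066 replicate 3 to -0.03 without untreated replicate 3, and 1 had an unadjusted p under 0.05, against 5.03% of all tested genes. That gene was Mlph, melanophilin, which links pigment granules to their motor, with 230.4, 241, 258 and 214 CPM in QH-II-066 tumours, against 298, 374, 405 and 275 CPM in untreated tumours, and no overlap. Its partner Rab27a had 286, 285, 307 and 273 CPM in QH-II-066 tumours, against 408, 352, 431 and 286 CPM in untreated tumours, and Tyrp1, an enzyme of the melanin pathway, had 2754, 4948, 5301 and 3360.4 CPM in QH-II-066 tumours, against 6278, 7215, 9482 and 3421 CPM in untreated tumours. In both, untreated replicate 4 lay among the QH-II-066 libraries. Pmel, Tyr (tyrosinase) and Mitf (the master regulator of the lineage) had log2 fold changes of 0.05 ± 0.13 (SE), -0.29 ± 0.21 (SE) and -0.09 ± 0.21 (SE).

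The receptor that QH-II-066 acts on was scarcely represented in these libraries. Of 16 GABA-A subunit genes examined, 12 had any fragment in the 8 libraries, 10 had fewer than 10 in all 8 together, and 3 had enough to be tested. Gabra5 had 0 fragments in all 8 libraries, as had Gabra4, Gabra6 and Gabrg1. Taken as fewer than 3 fragments, a count of 0 allows up to 0.0796 to 0.121 CPM per library, for counting error only. Gabrq had 1 fragment in 1 QH-II-066 library. Whether the capture probes cover these genes was not tested.

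Gabra3 was the subunit gene with the smallest p. It had 7, 38, 26 and 33 fragments in QH-II-066 libraries, against 9, 1, 6 and 12 in untreated libraries, that is, 0.231, 1.27, 1.05 and 0.876 CPM in QH-II-066 tumours, against 0.301, 0.0385, 0.192 and 0.422 CPM in untreated tumours. QH-II-066 replicate 1 lay within the untreated range and the other 3 above it. The log2 fold change was 1.82 ± 0.84 (SE), with an unadjusted p of 0.0455 in edgeR and an adjusted p of 0.546. Gabrd had 24, 30, 7 and 28 fragments in QH-II-066 libraries, against 13, 9, 5 and 20 in untreated libraries, and Gabrb1 had 8, 0, 9 and 16 in QH-II-066 libraries, against 6, 8, 3 and 8 in untreated libraries.

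**Figure D3:**
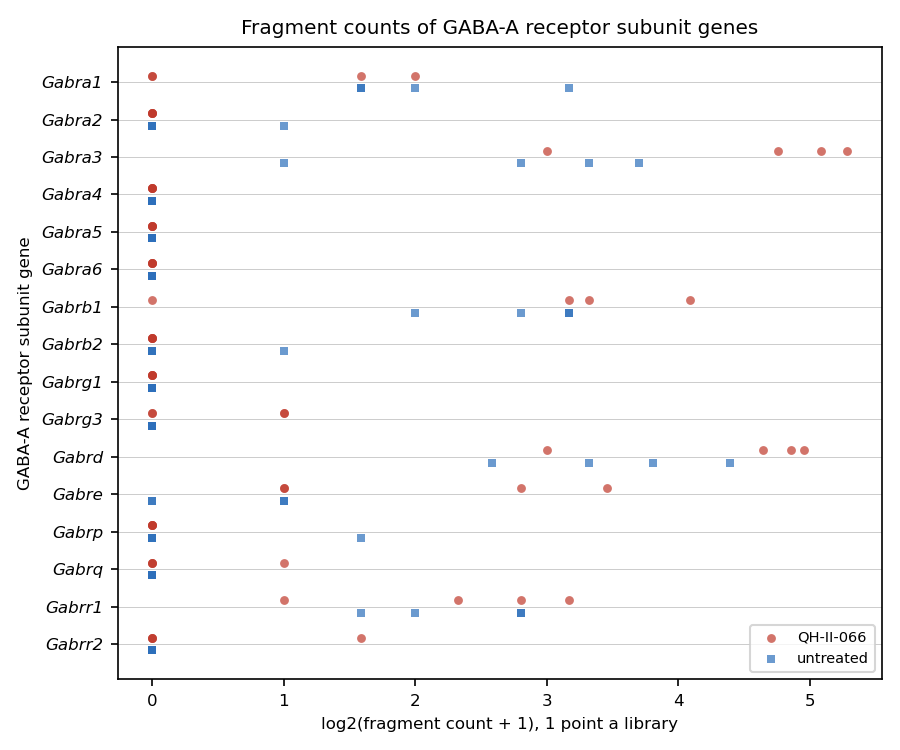
Fragments counted for 16 GABA-A receptor subunit genes in each library, as log2 of the count plus 1; red circles are QH-II-066 tumours and blue squares untreated tumours, 4 libraries each. Gabra5 lies at 0 in all 8 libraries, and Gabra3 reaches 38 fragments in QH-II-066 tumours and 12 in untreated ones.

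Genes that anchor the receptor or handle its transmitter, its ion and calcium lay near 0. Of 14 tested genes for GABA handling and receptor anchoring 10 were below 0, with a median of -0.12, which ran from -0.21 without QH-II-066 replicate 3 to -0.03 without untreated replicate 3. Slc6a6, a taurine transporter, Nsf, a membrane fusion ATPase, and Gabarap, which binds the receptor's gamma subunit and acts in autophagy, had log2 fold changes of -0.61 ± 0.34 (SE), -0.22 ± 0.13 (SE) and 0.30 ± 0.18 (SE). Of 20 chloride transport genes 12 were below 0, with a median of -0.10, which ran from -0.24 without QH-II-066 replicate 3 to -0.03 without untreated replicate 3, and 2 had an unadjusted p under 0.05, both below 0, against 5.03% of all tested genes. These were Wnk1, the kinase that sets cation-chloride cotransport, at -0.37 ± 0.16 (SE), and the exchanger gene Clcn5 at -0.46 ± 0.21 (SE); its relative Clcn4 had -0.28 ± 0.16 (SE). Of 23 calcium signalling genes 14 were below 0, with a median of -0.08, and 2 had an unadjusted p under 0.05, both below 0, against the same 5.03%. These were Itpr1, a calcium release channel, at -0.51 ± 0.23 (SE), and the calcium-driven transcription factor Nfatc3 (overlapping Esrp2) at -0.43 ± 0.19 (SE); the store sensor Stim1 had -0.47 ± 0.25 (SE). In Wnk1, Clcn5 and Itpr1 untreated replicate 4 lay among the QH-II-066 libraries, and in Nfatc3 it lay below them. With each library's gene length slope as a covariate the median was 0.0052 for GABA handling and receptor anchoring. It was -0.03 for chloride transport and -0.03 for calcium signalling. The 5.03% does not allow for exon length. Of 1647 genes of 8000 bases or more (mean log2 CPM at least 1), 260 were lower at an unadjusted p under 0.05. Wnk1, Clcn5 and Itpr1 have 15780, 11452 and 9848 bases of exon, and Nfatc3 6014. The part of length was not tested.

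Targets of p53 showed no common direction, and most tested genes of the 2 cell death lists lay above 0 without a call in edgeR. Of 26 p53 targets 14 were above 0, with a median of 0.04, which ran from -0.09 without QH-II-066 replicate 3 to 0.07 without QH-II-066 replicate 1. Cdkn1a, the cell cycle inhibitor p21, had 187, 189, 209 and 187 CPM in QH-II-066 tumours, against 188, 214, 179 and 196 CPM in untreated tumours. Its log2 fold change was -0.01 ± 0.11 (SE), and its 95% interval ran from -0.25 to 0.23. Mdm2, the p53 ligase, Bax, the pore-forming death protein, Fas, a death receptor, Tigar, a regulator of glycolysis, and Xpc, a damage sensor, had log2 fold changes of -0.12 ± 0.13 (SE), 0.33 ± 0.26 (SE), 0.75 ± 0.44 (SE), -0.17 ± 0.10 (SE) and -0.29 ± 0.14 (SE). Of 27 apoptosis regulators 18 were above 0, with a median of 0.07, which ran from 0.03 without untreated replicate 3 to 0.14 without untreated replicate 4. Bcl2l13, a mitochondrial BCL2 relative overlapping Bid, had 66.7, 73.1, 86.8 and 60.8 CPM in QH-II-066 tumours, against 103, 105, 132 and 78.0 CPM in untreated tumours. Mcl1, a survival member of that family, had 304, 307, 259 and 289 CPM in QH-II-066 tumours, against 215, 227, 229.8 and 266 CPM in untreated tumours, and Birc2, a ubiquitin ligase that limits caspase activation, had 25.6, 24.2, 25.8 and 25.9 CPM in QH-II-066 tumours, against 22.3, 22.4, 22.2 and 21.2 CPM in untreated tumours. The groups did not overlap for Birc2, at a log2 fold change of 0.20 ± 0.11 (SE). Of 13 necroptosis and pyroptosis genes 11 were above 0, with a median of 0.31, which ran from 0.14 without untreated replicate 1 to 0.50 without untreated replicate 4. Ripk3, the kinase of necroptosis, had a log2 fold change of 0.71 ± 0.26 (SE), and Casp1 and Il18 of the inflammasome pathway had 0.67 ± 0.33 (SE) and 0.51 ± 0.26 (SE).

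Genes of cell division and of DNA repair lay mostly below 0. Of 20 mitosis genes 17 were below 0, with a median of -0.22 that ran from -0.25 without QH-II-066 replicate 1 to -0.12 without untreated replicate 3, and 4 had an unadjusted p under 0.05, against 5.03% of all tested genes. Mki67, the proliferation marker Ki-67, had 289, 279, 284 and 272 CPM in QH-II-066 tumours, against 330.2, 360.4, 429 and 278 CPM in untreated tumours. Cenpf, a kinetochore protein, and Bub1b, a spindle checkpoint kinase, had log2 fold changes of -0.52 ± 0.17 (SE) and -0.36 ± 0.15 (SE). Of 27 genes of DNA damage signalling and repair 22 were below 0, with a median of -0.29 that ran from -0.35 without untreated replicate 4 to -0.18 without untreated replicate 3, and 5 had an unadjusted p under 0.05, against the same 5.03%. Mdc1, a scaffold at DNA breaks, had 49.2, 52.8, 71.0 and 48.5 CPM in QH-II-066 tumours, against 92.5, 89.6, 113 and 53.9 CPM in untreated tumours, where untreated replicate 4 lay among the QH-II-066 libraries. Msh6, a mismatch repair protein overlapping Fbxo11, had 89.7, 81.4, 94.1 and 80.6 CPM in QH-II-066 tumours, against 111, 95.3, 118 and 97.1 CPM in untreated tumours, with no overlap. Nbn, of the complex that senses breaks, had -0.36 ± 0.15 (SE). The 5.03% does not allow for exon length, whose part was not tested.

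Sufu, a suppressor of Hedgehog signalling, and Gbe1, the glycogen branching enzyme, had log2 fold changes of -0.37 ± 0.15 (SE) and -0.27 ± 0.17 (SE). Krt5, a basal keratin of skin, had 0, 0, 1.98 and 0 CPM in QH-II-066 tumours, against 0.334, 0, 0 and 0 CPM in untreated tumours, so 1 library of each group held its fragments.

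Short, abundant housekeeping transcripts lay above 0 together. All 38 cytosolic ribosomal protein genes had a log2 fold change above 0, with a median of 0.44, set against 51.6% of all tested genes above 0, and 0 had an unadjusted p under 0.05. The median was 0.18 without QH-II-066 replicate 1 and 0.68 without untreated replicate 4. Rps14, of the small subunit, had 3436, 1916, 975 and 1857 CPM in QH-II-066 tumours, against 1139, 1061, 871 and 2023 CPM in untreated tumours. Rps24 and Rpl37 had log2 fold changes of 0.63 ± 0.34 (SE) and 0.56 ± 0.30 (SE). The list's score was 10.86, 10.29, 9.56 and 10.27 in QH-II-066 libraries and 9.82, 9.64, 9.51 and 10.41 in untreated ones; QH-II-066 replicate 3 was low and untreated replicate 4 high within their groups. Of 28 nuclear genes of oxidative phosphorylation 23 were above 0, with a median of 0.27, which was 0.10 without QH-II-066 replicate 1 and 0.45 without untreated replicate 4. Ndufa4, Cox4i1 and Cox6c, all small subunits of the respiratory chain, had 0.48 ± 0.24 (SE), 0.61 ± 0.35 (SE) and 0.47 ± 0.27 (SE).

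**Figure D4:**
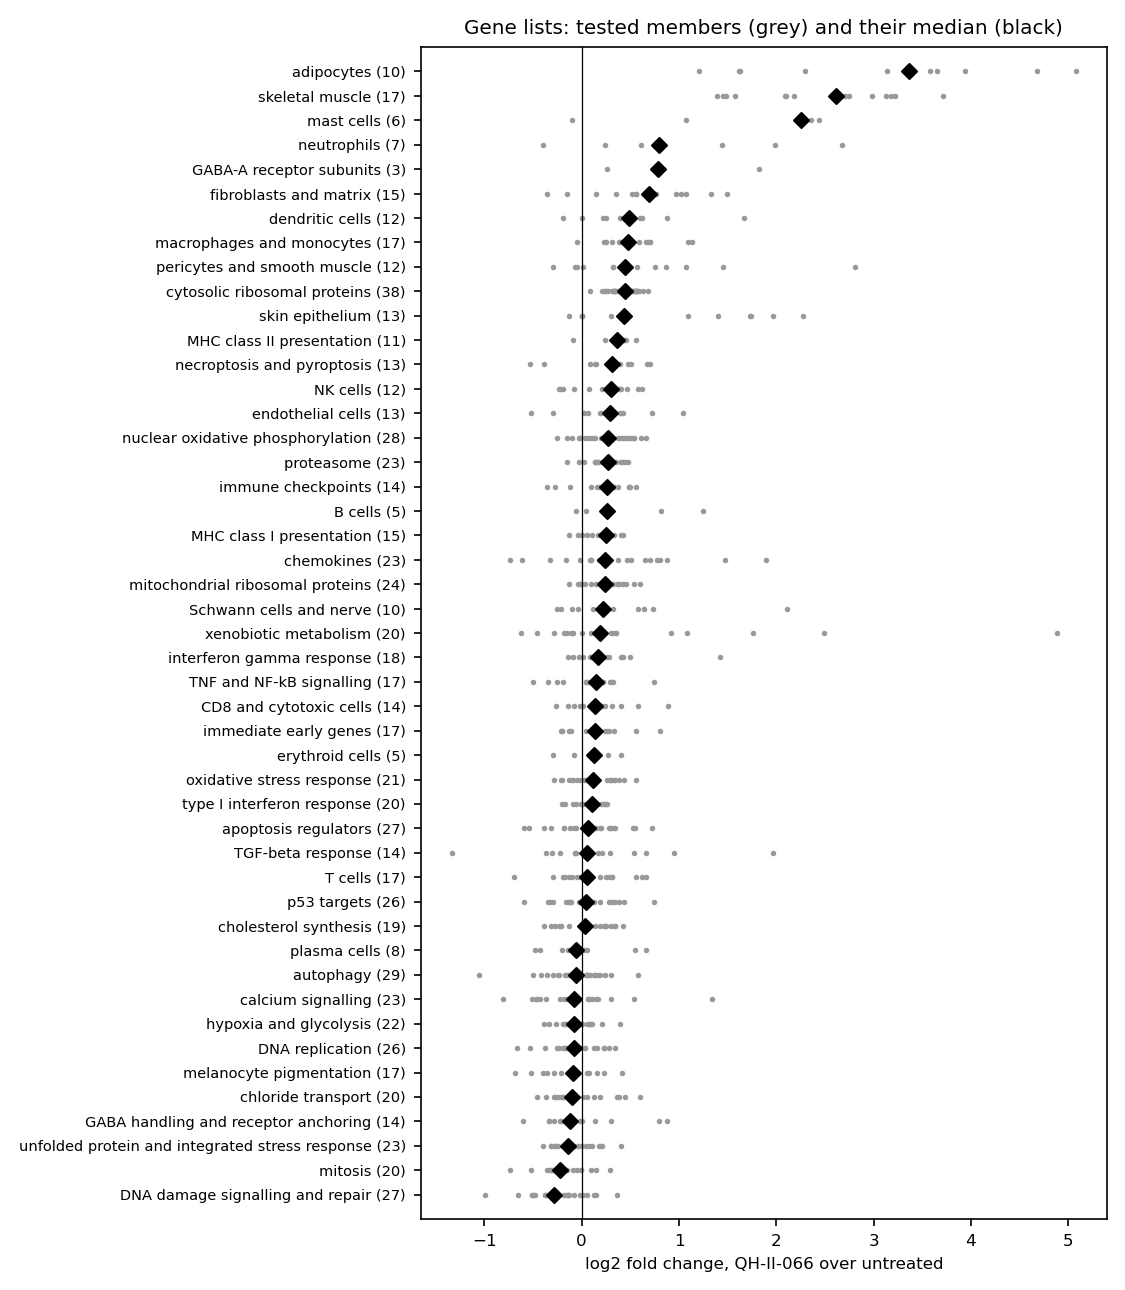
Log2 fold change, QH-II-066 over untreated, of the tested members of 47 gene lists (grey points) and their medians (black diamonds); the number of tested members stands in brackets after each name. Adipocytes lie highest, with a median of 3.36, and DNA damage signalling and repair lowest, at -0.29, and edgeR called no member of any list, while DESeq2 called Fabp4 and Tagln.

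The length of a gene's exons moved with its log2 fold change. Among the 11916 genes whose mean log2 CPM was 1 or more, the 517 with under 1000 bases of exon had a median of 0.40 on the log2 scale, and 92.1% of them were above 0. The median was 0.23 for 1613 genes of 1000 to 2000 bases, 0.03 for 3926 genes of 2000 to 4000 bases, -0.13 for 4213 genes of 4000 to 8000 bases, and -0.24 for 1647 genes of 8000 bases or more, of which 17.1% were above 0. The median exon length was 3192 bases for the 12 named genes above 0 and 6711 bases for the 12 below 0, with 3945.5 over these genes as a whole.

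**Figure D5:**
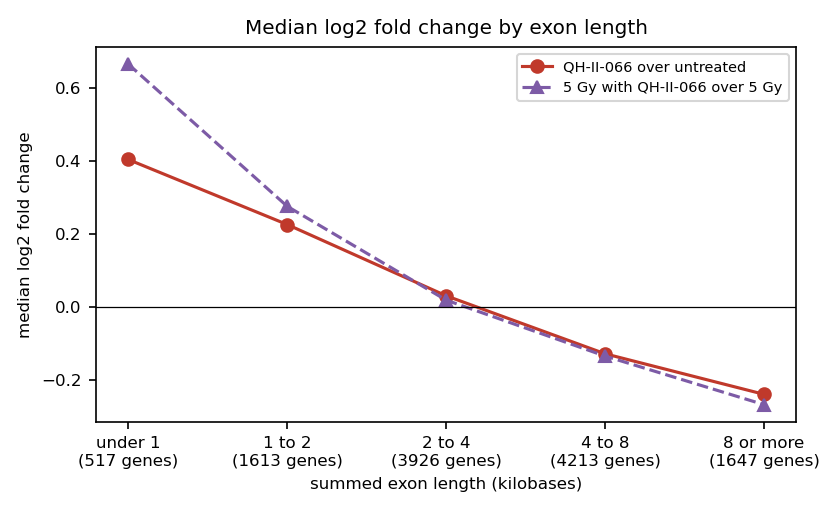
Median log2 fold change of genes by summed exon length, for QH-II-066 over untreated (red circles) and for 5 Gy with QH-II-066 over 5 Gy (purple triangles), over the 11916 genes whose mean log2 CPM was 1 or more. Both lines are highest for the shortest genes, at 0.40 and 0.67, and lowest for the longest, at -0.24 and -0.27.

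The same relation can be read as 1 value per library, the slope on log2 gene length of how far log2 CPM in that library departs from the mean of the libraries, taken over genes whose mean log2 CPM exceeds 3. It was -0.247, -0.115, 0.131 and -0.121 in QH-II-066 libraries 1 to 4, against 0.0817, 0.139, 0.228 and -0.178 in untreated libraries 1 to 4. QH-II-066 replicate 3 lay among the untreated libraries and untreated replicate 4 among those of QH-II-066. The mean was -0.0881 ± 0.158 in QH-II-066 libraries and 0.0676 ± 0.175 in untreated ones (SD, n = 4 each). Their difference of -0.156 did not exceed the spread between libraries (two-sided exact permutation test, p = 0.257; the smallest p that 4 against 4 allows is 0.0286). With the slope as a covariate the median was -0.03 for ribosomal protein genes, -0.05 for oxidative phosphorylation, -0.14 for mitosis and -0.09 for DNA damage signalling and repair. For fibroblast and matrix genes it was 0.50, and for adipocyte genes 3.52. edgeR called 0 genes in that fit, with 462 higher and 289 lower at an unadjusted p under 0.05. The part of RNA quality in these values was not tested.

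The same drug was also given to irradiated tumours, 4 libraries of 5 Gy with QH-II-066 against 4 of 5 Gy. None of them enters the group means compared above, but all share the model's estimate of the spread. The p-values of the 2 comparisons are therefore not fully independent. In irradiated tumours edgeR called 0 genes higher and 0 lower, with 1864 higher (11.6%) and 1272 lower (7.9%) at an unadjusted p under 0.05. Skin transcripts were abundant in 3 libraries of 5 Gy with QH-II-066 and 2 of 5 Gy, which bears on the list values. The adipocyte median was -1.33 there, that of fibroblast and matrix genes -0.96, that of macrophages -0.43, and that of pericytes and smooth muscle -0.55, all below 0, where the drug comparison without radiation had them above 0. This difference of medians was not tested. All 38 ribosomal protein genes were above 0 there too, with a median of 0.75, set against 44.3% of all tested genes above 0 in that comparison.

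Of the 12 genes above 0 without radiation, 2 were above 0 in irradiated tumours, set against 44.3% of all tested genes. Rsrp1 averaged 156 ± 32.1 CPM in tumours given 5 Gy with QH-II-066 and 97.8 ± 25.8 CPM in tumours given 5 Gy (SD, n = 4 each), which is 0.67 ± 0.19 (SE) as a log2 fold change, close to the 0.69 without radiation. 6720427I07Rik had 0.62 ± 0.28 (SE) with radiation. Igf1 averaged 15.7 ± 8.78 CPM with 5 Gy and QH-II-066 and 24.3 ± 6.52 CPM with 5 Gy, and Tagln averaged 25.6 ± 5.46 CPM with 5 Gy and QH-II-066 and 29.0 ± 8.09 CPM with 5 Gy. Of the 12 genes below 0, 10 were below 0 in irradiated tumours, set against 55.7% of all tested genes. Of those 10, Slc10a7 was at -6.19e-06, which is no difference. The 12 are long genes, with a median exon length of 6711 bases, and 55.7% does not allow for length. Genes of 4000 to 8000 bases, at a mean log2 CPM of 1 or more, had a median of -0.13 in irradiated tumours. The part of length was not tested. Kif26a averaged 8.84 ± 1.58 CPM with 5 Gy and QH-II-066 and 14.8 ± 2.70 CPM with 5 Gy, a log2 fold change of -0.73 ± 0.20 (SE). Kdm6b averaged 21.7 ± 3.33 CPM with 5 Gy and QH-II-066 and 31.6 ± 3.79 CPM with 5 Gy, a log2 fold change of -0.54 ± 0.18 (SE), while Banp and Armc9 had 0.06 ± 0.16 (SE) and 0.07 ± 0.14 (SE).

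The difference between the drug effects with and without radiation was tested as an interaction. edgeR called 0 genes for it, with 251 above 0 (1.56%) and 870 below 0 (5.4%) at an unadjusted p under 0.05, and the smallest adjusted p was 0.445. DESeq2 called 59, limma-voom with sample weights 492 and limma-voom without them 0. An unadjusted interaction p under 0.05 was found in 10 of the 12 named genes above 0, which had been picked by the values that enter this test, and in 3 of the 12 below 0.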

How the data were processed

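The 8 libraries of QH-II-066 and untreated tumours are described here, and the other 8 of the series entered the model. Per the labels, RNA was prepared by a transcript capture method and sequenced at the Broad Institute on an Illumina HiSeq2500. The deposited table holds raw counts, 1 whole number of fragments for each gene and library. Per the file headers, featureCounts 1.6.0 counted read pairs over exons without strand. The submitters' processing notes name STAR 2.4.1a, edgeR and the mouse build mm10. Coordinates are those of the deposited table, counted from 1.

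All 16 libraries were fitted in 1 edgeR 4.0.16 model of 4 group means (R 4.3.3) after filterByExpr and TMM scaling, by the two-sided quasi-likelihood test in its robust form, with Benjamini-Hochberg adjustment and a threshold of 0.05. Intervals are 95% and unadjusted, n is 4 a group, and list scores use a prior count of 2. The code was tested on simulated data. Alternatives were RLE scaling, other filters, the 8 libraries alone, fits without libraries holding skin transcripts, DESeq2 1.42.0, limma-voom 3.58.1, score and slope covariates, a replicate block, a threshold of 0.1 and each library left out. The adipocyte covariate, limma-voom without sample weights, and limma-voom with weights but without untreated replicate 4 were chosen after seeing the data.

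The comparison and the 48 gene lists were chosen with earlier results of these data known. The genes named were the 12 with the smallest unadjusted p in each direction at a mean log2 CPM of at least 1, up to 3 members with the smallest p from each of 24 lists, and 23 fixed genes, of which 21 were tested. Some genes that this rule names are not reported here.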

Additional observations from a re-analysis of the deposited data

Results flagged for a closer look

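Of 316 groups of 4 libraries examined, 14 had a highest or lowest library set apart from the other 3 by more than Dixon's 95% critical share of the group's range, where chance flags about 1 in 20 groups. In QH-II-066 tumours, replicate 4 had a log2 CPM of 5.06 for Casq1, the next library being at 0.33. Replicate 3 of that group had 10.7 for H2-D1, the lowest of its group, and 1.04 for Krt5 and 7.71 for Cdkn1a, the highest. Its list scores were 5.31 for chloride transport and 5.57 for DNA damage signalling and repair, both the highest of the group. Replicate 1 of that group had the highest DNA replication score, at 6.88. In untreated tumours, replicate 4 had a log2 CPM of 4.93 for Xpc and 4.41 for Birc2, both the lowest of its group, and 1.28 for Fas, the highest. Its scores were 6.47 for mitochondrial ribosomal proteins and 7.16 for the oxidative stress response, both the highest. Replicate 1 of the untreated group had -1.31 for Krt5, and replicate 2 a TGF-beta response score of 3.47, both the highest.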

How the results depend on the processing

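In edgeR, each fit with another scaling, filter, covariate or set of libraries called 0 genes in the drug comparison, as did a threshold of 0.1. The drug comparison gave 13 genes higher and 3 lower in DESeq2, 1875 and 2747 in limma-voom with sample weights, and 2414 and 3205 in that fit without untreated replicate 4. For 5 Gy with QH-II-066 against 5 Gy the counts were 76 and 47 in DESeq2 and 20 and 64 in weighted limma-voom. For the interaction these tools called 59 and 492. The cause was not tested. The gene length slope difference kept its sign, from -0.238 to -0.102 with 1 library left out.

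The replicate numbers gave no clear sign of pairing, though 4 correlations cannot exclude it. Deviations of same-numbered libraries correlated at -0.0884, 0.129, 0.205 and 0.202. QH-II-066 replicates 2 and 4 correlated best with the untreated library of their own number, and replicates 1 and 3 with untreated replicates 4 and 1. With the replicate number as a block, edgeR called 0 genes, with 465 higher and 760 lower at an unadjusted p under 0.05, and the block changed no call.

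Of the medians of 47 gene lists, 12 changed sign with 1 library left out and 26 in at least 1 of the settings tried for lists. Log2 fold changes of 19 named genes changed sign, all of them uncalled. With the adipocyte score as a covariate, Lipe was at -0.25, Casq1 at -0.35, Tnni2 at -1.50, Acta1 at -3.01, Cd8a at -0.10, Krt5 at -1.38, Ifng at -0.23, Cd274 at -0.46, Mitf at 0.0435 and Cdkn1a at 0.0336. With the gene length slope as a covariate, Cox4i1 was at -0.00272, Cox6c at -1.3e-05, Tyr at 0.00762, Bax at -0.0419, Mdm2 at 0.00893, Mitf at 0.13, Pmel at -0.0386 and Cxcl10 at -0.0609. With the muscle score and the slope, Tyr was at 0.055, Bax at -0.0276, Acta1 at -0.59, Mdm2 at 0.0424, Mitf at 0.18, Pmel at -0.0477 and Cxcl10 at -0.0745. With the muscle score, Acta1 was at -0.78. In limma-voom with sample weights, Krt5 was at -1.31 and Gabrb1 at -0.72. In limma-voom without them, Gabrb1 was at -0.36. In limma-voom with weights but without untreated replicate 4, Krt5 was at -1.06 and Gabrb1 at -0.68. With RLE scaling, Cdkn1a was at 0.00347. In DESeq2, Cdkn1a was at 0.00346. With no filter, Cdkn1a was at 0.00576. With the stricter filter, Cdkn1a was at 0.000911. In the 8 libraries alone, Cdkn1a was at 0.0119. With 1 library left out in turn, Casq1 ran from -0.49 to 2.96, Tnni2 from -1.47 to 3.88, Acta1 from -2.80 to 3.59, Krt5 from -4.40 to 6.66, Gzmb from -0.48 to 0.0516, Cd274 from -0.19 to 0.34, Mitf from -0.21 to 0.0851, Pmel from -0.0232 to 0.14, Gabrb1 from -0.0899 to 0.66, Cxcl10 from -0.14 to 0.56 and Cdkn1a from -0.052 to 0.0399.

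Intervals were widest for genes of low count, with a median half-width of 1.25 log2 units under a log2 CPM of 1, against 0.34 at 5 or more. How much of this is depth and how much is spread between libraries was not tested.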

Other observations

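In edgeR and DESeq2 0 members of the lists not described above were called. Among others, limma-voom with sample weights called 16 of 23 proteasome genes and 11 of 23 chemokine genes higher. That fit called 1875 genes higher and 2747 lower of all 16101 tested. Genes of T cells were above 0 in 9 of 17, with a median log2 fold change (QH-II-066 over untreated) of 0.05, which ran from -0.11 without QH-II-066 replicate 4 to 0.40 without untreated replicate 4. The medians were 0.30 for NK cells (8 of 12 above 0), 0.26 for B cells (4 of 5) and -0.06 for plasma cells (4 of 8). Neutrophil genes were above 0 in 6 of 7, with a median of 0.80 that was 0.22 without QH-II-066 replicate 2, and their score was -1.33, 0.98, -0.13 and -1.07 in QH-II-066 libraries and -0.87, -0.66, -1.17 and -1.06 in untreated ones, so that QH-II-066 replicates 2 and 3 were the high libraries. Immune checkpoint genes had a median of 0.26 (11 of 14 above 0), MHC class II presentation 0.36 (10 of 11), chemokines 0.24 (18 of 23), TNF and NF-kB signalling 0.15 (13 of 17), the type I interferon response 0.11 (14 of 20) and the interferon gamma response 0.17 (15 of 18). With the adipocyte score as a covariate the medians were below 0 for T cells (-0.41), plasma cells (-0.44), immune checkpoints (-0.18), TNF and NF-kB signalling (-0.03), the type I interferon response (-0.40) and the interferon gamma response (-0.27). Both interferon medians were also below 0 without QH-II-066 replicate 3, at -0.19 and -0.06. Without untreated replicate 4 they were 0.27 and 0.49, and those of NK cells, B cells, plasma cells, MHC class II presentation and chemokines were 0.78, 0.55, 0.47, 0.89 and 0.70. The NK cell and immune checkpoint medians were -0.05 and 0.05 without untreated replicate 1, that of B cells -0.01 without untreated replicate 2, and those of MHC class II presentation and chemokines 0.18 and 0.04 without untreated replicate 3.

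Erythroid genes had a median of 0.12 (3 of 5 above 0). Skin epithelium had 0.44 (8 of 13 above 0, 1 below 0 and the rest at exactly 0), with skin scores under 0 in all 8 libraries. The filter on low counts used all 16 libraries, and skin transcripts were abundant in some irradiated ones. The erythroid median was -0.22 without QH-II-066 replicate 2, and that of skin was 2.74 with the gene length slope as a covariate, -1.76 with the adipocyte score and 0 without QH-II-066 replicate 3. Genes of the proteasome had a median of 0.27 (21 of 23 above 0) and mitochondrial ribosomal proteins 0.24 (19 of 24). With the gene length slope as a covariate these were -0.03 and -0.10, and without QH-II-066 replicate 1 they were 0.14 and 0.04. DNA replication had -0.08 (8 of 26 above 0), the unfolded protein and integrated stress response -0.14 (8 of 23), hypoxia and glycolysis -0.08 (8 of 22), autophagy -0.06 (13 of 29), cholesterol synthesis 0.03 (12 of 19), the oxidative stress response 0.12 (13 of 21), immediate early genes 0.14 (12 of 17) and the TGF-beta response 0.05 (7 of 14). Of these, hypoxia and glycolysis was at 0.19, the unfolded protein and integrated stress response at 0.01 and DNA replication at 0.02 with the adipocyte score as a covariate, and the oxidative stress response at -0.04 with the slope. Cholesterol synthesis was at -0.05 without QH-II-066 replicate 1.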
